A study of Mus musculus with 8 samples.

Results

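Chemokine genes were examined in whole esophagi of healthy mice, as the CC and CXC chemokine ligands together with the CX3C ligand Cx3cl1 and the C ligand Xcl1. Members were taken by symbol, as every Ccl or Cxcl number with at most a closing letter for the CC genes, and Cx3cl1, Xcl1, Pf4 and Ppbp, while the eotaxin genes Ccl11 and Ccl24 were left aside. The rule used no measured value. It found 39 of the 32849 gene symbols in the count table. Of these, 35 had at least 1 read in some library and are described here, and 4 had none in any library (Ccl1, Ccl21b, Ccl21d and Ccl27b).

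The samples were frozen, untreated esophagi of MGL KO and WT mice, sequenced as poly(A)-selected RNA in 4 libraries per group. MGL KO mice lack monoacylglycerol lipase, the enzyme that degrades the endocannabinoid 2-AG, in all tissues, and were bred in-house with WT littermates. Age, sex and litter are not given for each library. Transcripts of the Y chromosome were present in all 8 libraries (summed level of 4 genes between 186 and 224 CPM), and Xist reached at most 6.23 CPM. Nothing in the labels says more than that the libraries are separate, numbered samples, so the p-values measure only the spread between these samples, part of which may be technical. Levels are normalized CPM, the counts of a gene relative to the library's total over the genes kept for the test, scaled by TMM factors, which correct for differences in RNA composition between libraries. The libraries held between 13479069 and 17090152 counts, so that a gene with no reads in a library may still reach 3 counts, or between 0.167 and 0.271 CPM (counting error only). Mgll itself, the targeted gene, was 13.7 ± 1.54 CPM in MGL KO and 81.2 ± 9.97 CPM in WT esophagi (SD, n = 4), with every MGL KO library below every WT library.

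Chemokines are small secreted proteins that bind G protein-coupled receptors and direct the migration of leukocytes along a gradient. The family is named after the spacing of its conserved cysteines, and many of its genes lie in clusters that arose by duplication. Inflammatory members are induced at sites of injury or infection and recruit neutrophils, monocytes or T cells, whereas homeostatic members are made constantly and place lymphocytes, dendritic cells and stem cells in tissues. In the esophagus, squamous epithelium, stromal cells, vessels and resident macrophages are all possible sources.

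None of the chemokine genes passed the test between MGL KO and WT esophagi. Of the 35 members, 16 had enough counts for edgeR's quasi-likelihood test, and 0 of these reached an adjusted p under 0.05, the lowest adjusted p being 0.499, against 0.0471% of all 14864 genes tested. At an unadjusted p under 0.05 there were 3 members, namely Cxcl14 and Ppbp, which were higher in MGL KO, and Cxcl12, which was lower (8.65% of all tested genes had such a p, 4.35% with a higher and 4.29% with a lower level in MGL KO). The same 3 genes were the members whose MGL KO and WT libraries did not overlap, against 6.02% of all tested genes (2.72% higher and 3.3% lower in MGL KO). The exact test and DESeq2 on the same genes called 0 members as well, with 5 and 6 members at an unadjusted p under 0.05, against 7.36% and 9.7% of all tested genes. Of the 16 tested members 12 (75%) had a lower estimate in MGL KO, compared with 47% of all tested genes, and their median log2 fold change (MGL KO minus WT) was -0.33, compared with 0.02 over all tested genes. This median was -0.18 without WT replicate 1 (10 of 17 tested members lower) and -0.17 without WT replicate 3 (11 of 19 lower). These fits tested other sets of members. Ccl28 (log2 fold change 4.02) passed the filter without WT replicate 1. Without WT replicate 3, Ccl28 (4.10), Cxcl5 (6.42) and Cxcl2 (0.49) passed it. The medians are therefore not over the same 16 genes and do not show how the tendency of those genes changed. The standard error of a member's log2 fold change had a median of 0.34, against 0.20 over all tested genes, so that differences of the size seen for most members were not detectable with these libraries.

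A pair of libraries stood apart. Summed over the 35 members, chemokine transcripts amounted to 457 CPM in MGL KO replicate 4 and 396 CPM in WT replicate 1, and to between 129 and 203 CPM in the other 6 libraries. These libraries stood apart through different genes. In WT replicate 1, the sum of Ccl6, Cxcl12, Cxcl13 and Ccl9 made up 72.7% of the total, compared with between 52.7% and 60.6% in the libraries other than these 2. In MGL KO replicate 4, Cxcl5, Cxcl17, Ccl28 and Ccl20 made up 61.5% of the total and at most 1.80% in any other library, and without them its total of 176 CPM lay within the range of the others. WT replicate 1 was the highest library for 9 of the 16 tested members (56.2%), compared with 14.9% of all tested genes. Over all tested genes, MGL KO replicate 2 was most often the highest library (27.4%).

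Marker genes of other cell types moved with both libraries. The summed macrophage markers (9 genes such as Csf1r, Adgre1 and C1qa) were 642 CPM in WT replicate 1, between 217 and 407 CPM in the other WT libraries and between 197 and 246 CPM in MGL KO libraries. The B cell and follicle markers summed to 157 CPM in WT replicate 1, to 52.7 CPM in MGL KO replicate 4 and to at most 22.9 CPM elsewhere, and the T and NK cell markers to 22.5 CPM in WT replicate 1 and at most 7.31 CPM elsewhere. In MGL KO replicate 4 the 9 airway secretory markers summed to 10428 CPM, compared with between 79.1 and 202 CPM in the other libraries, where Cyp2f2 made up most of the sum. Scgb1a1, which encodes the club cell secretory protein, was 2222 CPM there and at most 18.9 CPM elsewhere, and Foxj1, which drives the formation of motile cilia, was 228 CPM there and at most 1.65 CPM elsewhere. The adipocyte markers summed to 699.7 CPM in MGL KO replicate 4, 613 CPM in WT replicate 1 and between 67.1 and 545 CPM elsewhere, and the dendritic cell markers to 28.3 CPM, 28.4 CPM and at most 18.7 CPM. Of the 8 eosinophil markers, Epx (eosinophil peroxidase) and Ear6 were at 0 in all libraries, while the sum of the list was 31.1 CPM in MGL KO replicate 4, of which Alox15 made up 30.1 CPM, 11.2 CPM in WT replicate 1 and at most 8.74 CPM elsewhere. The squamous markers Krt13 and Krt5 were present throughout, at 1464 CPM or more and 1257 CPM or more. The part of these cell types in the chemokine values was not tested, and in whole tissue a change in the number of cells of a type and a change in RNA per cell cannot be told apart.

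**Figure D1:**
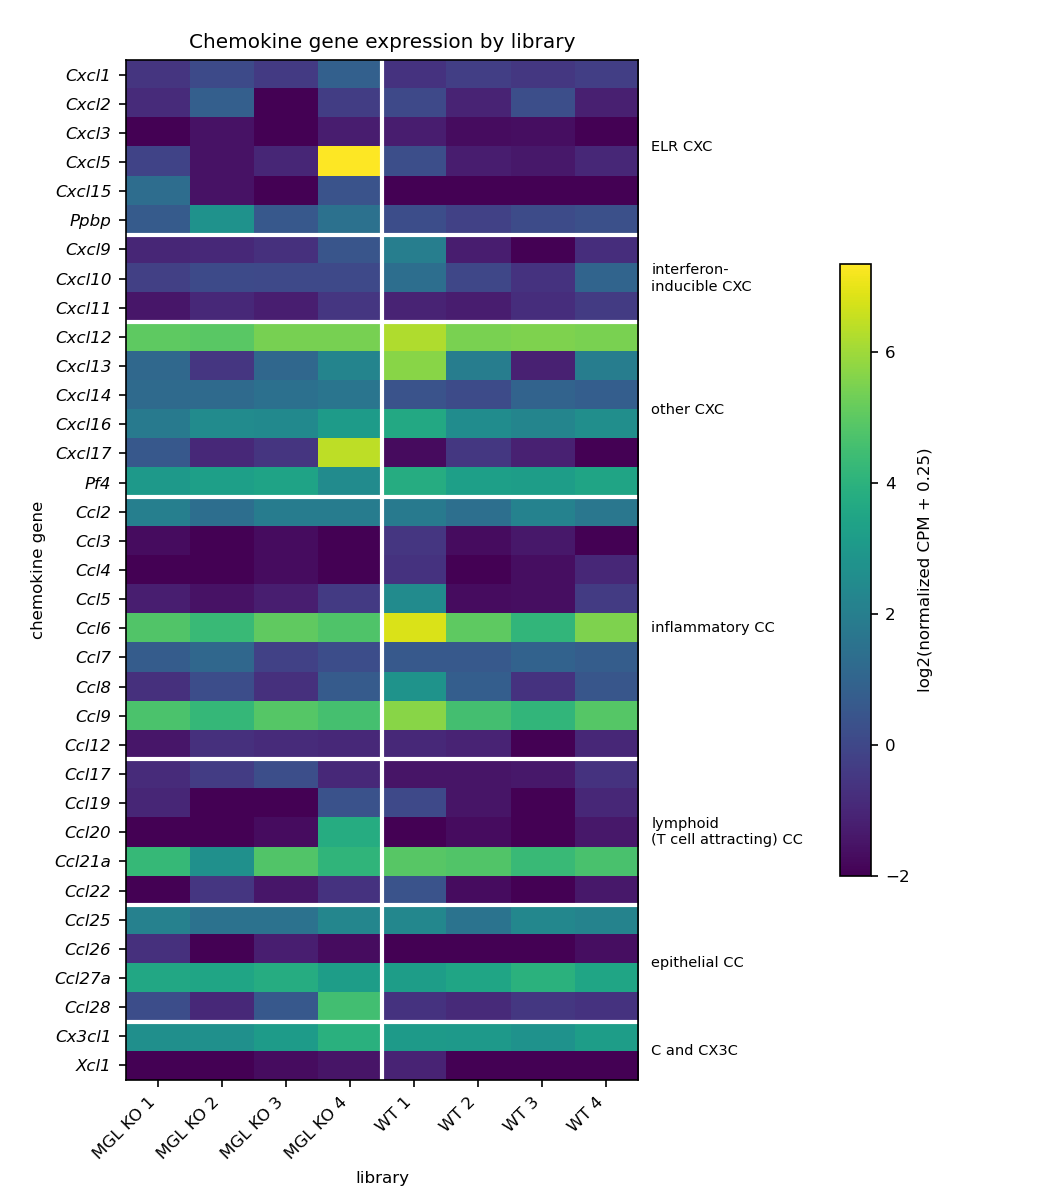
Levels of the 35 chemokine genes in each library, as log2 of CPM plus 0.25 (colour), with genes grouped by role and the 4 MGL KO and 4 WT libraries as columns. Cxcl5, Cxcl17, Ccl28 and Ccl20 stand out in MGL KO replicate 4 (161, 83.9, 22.3 and 13.5 CPM), and Cxcl13 and Ccl6 in WT replicate 1 (51.0 and 111 CPM).

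Per kilobase of exon, Ccl21a, which guides CCR7-bearing dendritic cells and T cells into lymphatic vessels, had the highest median level of the tested members, at 23.1 CPM per kilobase (range 6.41 to 30.4 over the 8 libraries). Ccl6 followed at 16.6 CPM per kilobase (9.47 to 60.9), then Ccl9 at 7.90 (5.58 to 16.4), Cxcl12 at 5.20 (3.65 to 8.99), Ccl27a at 4.04 (3.31 to 5.65) and Pf4 at 3.81 (2.19 to 5.53). The lowest medians were those of Cxcl14 (0.552), Cxcl10 (0.353) and Ccl25 (0.333), where the merged exons of Ccl25, which overlap those of Elavl1, reach 12537 bases. For all 15 pairs of neighbours in this order the ranges overlapped, so the order of neighbours lies within the spread between libraries.

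Among the ELR CXC chemokines, which carry a glutamate-leucine-arginine motif and attract neutrophils through CXCR2, only Ppbp passed the filter on low counts. Ppbp encodes pro-platelet basic protein, the precursor of CXCL7, which is stored in platelet granules. It lies on chromosome 5 of GRCm39 (chr5:90916371-90917930, forward strand), directly before Pf4, which encodes platelet factor 4, another granule chemokine (chr5:90918479-90922110, forward strand). Ppbp was 1.35, 6.59, 1.23 and 2.53 CPM in MGL KO replicates 1 to 4 and 0.893, 0.628, 0.855 and 0.978 CPM in WT replicates 1 to 4. Every MGL KO library was above every WT library, with MGL KO replicate 2 far above the others. The counts behind these levels were between 20 and 73 reads in MGL KO and between 11 and 16 reads in WT libraries. The log2 fold change was 1.78 (SE 0.56, unadjusted p = 0.011, adjusted p = 0.499 in edgeR's quasi-likelihood test), and it was 1.03 (SE 0.35, unadjusted p = 0.020) without MGL KO replicate 2 and 0.93 (unadjusted p = 0.031) in limma-voom with quality weights.

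Pf4 had overlapping groups. Its level was 7.90, 9.48, 10.4 and 5.40 CPM in MGL KO and 13.6, 9.30, 8.94 and 10.8 CPM in WT libraries, with a log2 fold change of -0.37 (SE 0.24, adjusted p = 0.680). This estimate was -0.21 without MGL KO replicate 4, -0.23 without WT replicate 1 and -0.07 without both. Ppbp reads accordingly made up 14.6%, 41.0%, 10.6% and 31.9% of the reads of both genes in MGL KO and 6.15%, 6.32%, 8.72% and 8.29% in WT libraries. This share was again higher in each MGL KO library than in any WT library, a description of the same Ppbp counts rather than a separate result. Of the 6 platelet and megakaryocyte markers, Gp1bb was at 0 in all libraries, and Gp5 was 1.44 CPM in MGL KO replicate 2 and at most 0.281 CPM elsewhere. Gp9 was also highest in MGL KO replicate 2, at 0.812 CPM, whereas Treml1 was highest in MGL KO replicate 4, at 0.843 CPM. The sum of these markers, which Itgb3 and Itga2b dominate, was between 30.2 and 47.4 CPM in MGL KO and between 28.0 and 36.1 CPM in WT libraries, and MGL KO replicate 2 had the lowest sum of the MGL KO libraries. Their part in the Ppbp values was not tested.

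The promoters of both neighbours are shown because the genes are adjacent. They are the 250 bases before the annotated start from RefSeq on GRCm38.p6, Ppbp at chr5:90768268-90768517 and Pf4 at chr5:90772185-90772434, both on the forward strand and written 5′ to 3′. Matched to GRCm39, the RefSeq start of Pf4 lies 1815 bases inside the GENCODE span given above, which reaches further upstream, and that of Ppbp 6 bases inside. Capitals mark TATAAA, searched on both strands and found in 12.4% of the 32851 promoters of the table. Ppbp holds 2 such stretches, from base 30 to 25 and from base 8 to 3 before the start, and the Pf4 window holds none.
Ppbp: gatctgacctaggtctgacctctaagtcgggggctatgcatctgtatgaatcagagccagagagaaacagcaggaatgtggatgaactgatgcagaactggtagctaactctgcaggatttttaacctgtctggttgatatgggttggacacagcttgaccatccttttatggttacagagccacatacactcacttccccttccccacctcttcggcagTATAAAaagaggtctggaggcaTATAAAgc
Pf4: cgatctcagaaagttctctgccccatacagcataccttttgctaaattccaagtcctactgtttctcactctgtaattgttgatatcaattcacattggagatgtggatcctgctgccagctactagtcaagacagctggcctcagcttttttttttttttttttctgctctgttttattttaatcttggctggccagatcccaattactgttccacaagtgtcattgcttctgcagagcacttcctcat

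The other ELR genes and the related Cxcl15 had low counts and were not tested. Cxcl5 encodes an epithelial neutrophil attractant and lies in the same cluster (chr5:90907186-90909483, forward strand). It had 11, 1, 4 and 2871 counts in MGL KO and 17, 3, 2 and 4 counts in WT libraries, which is 161 CPM in MGL KO replicate 4 and at most 0.948 CPM elsewhere. Because 7 of 8 libraries lay near 0, the filter removed this gene. With no filter, edgeR's quasi-likelihood test gave a log2 fold change of 6.67 (SE 2.21, unadjusted p = 0.013, adjusted p = 0.602), a value that rests on this library. Cxcl1, the main murine neutrophil attractant of the group, was 1.57 CPM in MGL KO replicate 4 and at most 0.812 CPM elsewhere, Cxcl2 reached at most 1.53 CPM, and Cxcl3 at most 0.169 CPM. Cxcl15, a lung epithelial chemokine, had 37, 1, 0 and 19 counts in MGL KO and 0 counts in all WT libraries, with its highest level of 2.27 CPM in MGL KO replicate 1. Among the airway secretory markers, Scgb1a1 was 18.9 CPM and Bpifa1 12.5 CPM in that library, against at most 1.88 and 0.180 CPM in the libraries other than it and MGL KO replicate 4, while the sum of the list was 181 CPM there and 202 CPM in WT replicate 2. Their part in the Cxcl15 values was not tested. The neutrophil markers summed to between 6.41 and 24.9 CPM, highest in WT replicate 1 and next in MGL KO replicate 4 (22.7 CPM), and the defining marker Ly6g was at 0 in 7 of the 8 libraries.

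The interferon-inducible chemokines Cxcl9, Cxcl10 and Cxcl11 bind CXCR3 and attract activated T cells. Cxcl10 was 0.612, 0.812, 0.802 and 0.787 CPM in MGL KO and 2.34, 0.742, 0.394 and 1.76 CPM in WT libraries, so that the groups overlapped and the WT libraries varied far more. In the test the log2 fold change was -0.80 (SE 0.52, adjusted p = 0.681), and -0.36 without WT replicate 1. Exons of Cxcl10 overlap those of Art3 on the other strand, and reads of both cannot be told apart if strand was not used in counting. Cxcl9 was not tested, with 3.74 CPM in WT replicate 1, 1.12 CPM in MGL KO replicate 4 and at most 0.370 CPM elsewhere. Its receptor Cxcr3 was highest in the same library (2.12 CPM in WT replicate 1, at most 0.308 CPM elsewhere), as were all 8 measured T and NK cell markers. Cxcl11 stayed at or below 0.522 CPM.

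The other CXC members lack the ELR motif and act through a range of receptors. Cxcl12, which retains CXCR4-bearing leukocytes and stem cells and is made by stromal cells, was 32.0, 30.5, 43.1 and 42.8 CPM in MGL KO and 75.0, 43.8, 45.4 and 44.0 CPM in WT libraries. All MGL KO libraries were below all WT libraries, but MGL KO replicate 3 and WT replicate 2 differed by less than 1 CPM. The log2 fold change was -0.49 (SE 0.21, unadjusted p = 0.043, adjusted p = 0.571), and without WT replicate 1 it was -0.26 (SE 0.15, unadjusted p = 0.125). In the same quasi-likelihood test the unadjusted p was 0.103 without MGL KO replicate 1 and 0.103 without MGL KO replicate 2. It stayed under 0.05 when any other single library was left out, and it was above 0.05 in limma-voom. When only library size was used for scaling, the groups overlapped. The 8 fibroblast markers had lower estimates in MGL KO as well, with a median log2 fold change of -0.31. Of these, 2 had an unadjusted p under 0.05, against 4.29% of all tested genes lower at such a p. All 6 blood endothelial and all 6 lymphatic endothelial markers also had lower estimates (medians -0.24 and -0.21). The part of these markers in the Cxcl12 values was not tested.

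Cxcl14, an epithelial chemokine of barrier tissues, was the other member with a higher level in MGL KO at an unadjusted p under 0.05. It was 2.08, 2.08, 2.47 and 2.81 CPM in MGL KO and 1.06, 0.856, 1.71 and 1.499 CPM in WT libraries. The groups did not overlap, and no library stood far from its group. The log2 fold change was 0.88 (SE 0.29, unadjusted p = 0.014, adjusted p = 0.503), and it lay between 0.71 and 1.06 in all 21 alternative settings tried. In none of them did the adjusted p fall under 0.05 (0.219 to 0.923). Without both MGL KO replicate 4 and WT replicate 1 the estimate was 0.71 (unadjusted p = 0.081). The squamous epithelial markers did not separate the groups, with sums between 4763 and 17954 CPM in MGL KO and between 5567 and 18873 CPM in WT libraries.

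Cxcl13, which forms B cell follicles through CXCR5, varied most of the tested members. It was 1.96, 0.451, 1.91 and 4.33 CPM in MGL KO and 51.0, 3.65, 0.197 and 3.65 CPM in WT libraries, so that a single WT library was 11.8 times the next highest library. The log2 fold change of -2.73 (SE 1.29, adjusted p = 0.604) was -0.19 without WT replicate 1. The B cell marker Cd79a was 34.9 CPM in WT replicate 1, 10.1 CPM in MGL KO replicate 4 and lower elsewhere, and Cxcr5 was 4.797 CPM and 2.70 CPM in these libraries and at most 1.499 CPM elsewhere. Of the vessel markers of lymphoid tissue in the same list, Madcam1 was at most 0.112 CPM in all libraries, and Glycam1 was 1.29 CPM in MGL KO replicate 4 and at most 0.167 CPM elsewhere.

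Cxcl16, a membrane-bound ligand of CXCR6, was 3.37, 5.41, 5.12 and 8.43 CPM in MGL KO and 12.05, 5.59, 4.54 and 5.87 CPM in WT libraries (log2 fold change -0.33, SE 0.38, adjusted p = 0.802). Its groups overlapped, and the estimate was 0.07 without WT replicate 1. Exons of Cxcl16 overlap those of Med11 and Zmynd15 on the other strand. Cxcl17, a mucosal chemokine of airway and gland epithelium, was 83.9 CPM in MGL KO replicate 4 and at most 1.22 CPM elsewhere, a ratio of 68.5 to the next library, and it was not tested.

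**Figure D2:**
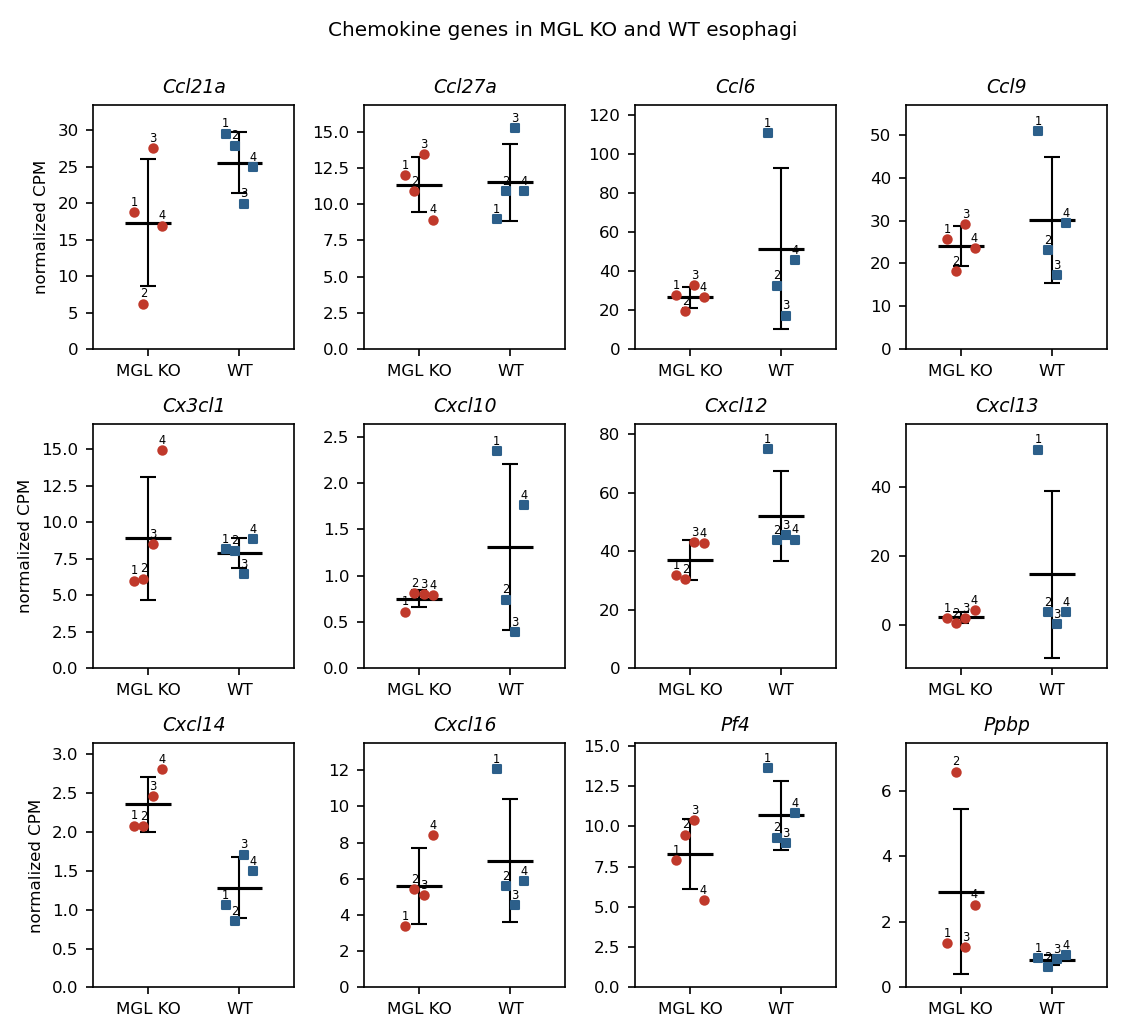
Levels of the described chemokine genes (CPM, linear axes, a panel for each gene) in the 4 MGL KO and 4 WT libraries, with points numbered by replicate and bars for the mean ± SD. The groups are separate for Ppbp, Cxcl14 and Cxcl12 alone, and WT replicate 1 lies far above the other WT libraries for Cxcl13 and Ccl6.

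The inflammatory CC chemokines recruit monocytes, macrophages and T cells. Ccl6, a chemokine of myeloid cells found in rodents, was 27.7, 19.6, 32.7 and 26.8 CPM in MGL KO and 111, 32.6, 17.2 and 45.8 CPM in WT libraries. The groups overlapped, as WT replicate 3 was the lowest of all 8 libraries, and WT replicate 1 was 2.42 times the next highest. For Ccl6 the log2 fold change was -0.95 (SE 0.49, unadjusted p = 0.084, adjusted p = 0.629), and it was -0.25 without WT replicate 1. Its chromosomal neighbour Ccl9, likewise a myeloid product, was 25.7, 18.1, 29.2 and 23.5 CPM in MGL KO and 50.9, 23.1, 17.4 and 29.4 CPM in WT libraries. The Ccl9 estimate of -0.32 (SE 0.31, adjusted p = 0.772) turned to 0.05 without WT replicate 1. For both genes the order of the WT libraries was that of the macrophage marker sums, which were 642, 257, 217 and 407 CPM in WT replicates 1 to 4, but among the MGL KO libraries it was not, since replicate 2 was lowest for both genes and next to highest for the marker sum (203 CPM, against 198, 246 and 197 CPM in replicates 1, 3 and 4). All 9 macrophage markers had lower estimates in MGL KO, with a median log2 fold change of -0.93. At an unadjusted p under 0.05 there were 8, against 4.29% of all tested genes lower at such a p. Without WT replicate 1 there were 4 and the median was -0.49, with 6.69% of all tested genes at such a p in either direction. None of the macrophage markers passed the adjusted threshold, and their part in the values of Ccl6 and Ccl9 was not tested.

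Ccl8, a monocyte attractant, was 6.69 CPM in WT replicate 1 and at most 1.48 CPM elsewhere (log2 fold change -1.70, SE 0.83, adjusted p = 0.616), and its estimate was -0.45 without that library. Ccl2, the principal ligand of CCR2 for monocytes, was even across libraries, at 3.86, 2.35, 3.58 and 3.54 CPM in MGL KO and 3.29, 2.40, 4.21 and 3.00 CPM in WT libraries, with a log2 fold change of 0.05 (SE 0.26). Ccl7, which shares receptors with Ccl2, was between 0.617 and 1.90 CPM in MGL KO and between 1.26 and 1.64 CPM in WT libraries (log2 fold change -0.24, SE 0.37). Ccl5, a product of activated T cells, was not tested. It had 98 counts in WT replicate 1 (5.47 CPM) and between 1 and 9 counts in every other library. Ccl3, Ccl4 and Ccl12 stayed at or below 0.446 CPM in all libraries.

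Among the chemokines of lymphoid traffic, Ccl21a was 18.7, 6.23, 27.5 and 16.9 CPM in MGL KO and 29.5, 27.9, 19.9 and 24.9 CPM in WT libraries. The groups overlapped, with MGL KO replicate 2 lowest. Ccl21a had a log2 fold change of -0.55 (SE 0.36, unadjusted p = 0.162, adjusted p = 0.681), and it lay between -0.86 and -0.28 as single libraries were left out. The lymphatic endothelial markers, which mark a known source of CCL21, were likewise lowest in MGL KO replicate 2, at a sum of 98.2 CPM, against 129 to 189 CPM in the other libraries. The same library was also lowest for the squamous (4763 CPM), fibroblast (1445 CPM) and blood endothelial (149 CPM) marker sums. It was highest for the skeletal muscle (81787 CPM) and smooth muscle (13324 CPM) sums. The part of these markers in the Ccl21a values was not tested. Ccl21a has near-identical copies in the mouse genome, and Ccl21b and Ccl21d were listed with 0 counts in all libraries, so the division of reads between copies is uncertain. Ccl19, the other CCR7 ligand, was 1.01 CPM in MGL KO replicate 4, 0.781 CPM in WT replicate 1 and lower elsewhere. The T helper attractants Ccl17 and Ccl22, which bind CCR4, were at most 0.925 and 1.06 CPM, with Ccl22 highest in WT replicate 1 (19 counts) and Ccl17 in MGL KO replicate 3 (15 counts).

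The epithelial CC chemokines gave no difference between the groups among those tested. Ccl27a, a keratinocyte chemokine that binds CCR10, was 12.002, 10.9, 13.4 and 8.94 CPM in MGL KO and 8.98, 10.9, 15.3 and 10.9 CPM in WT libraries. Its log2 fold change was -0.02 (SE 0.20, adjusted p = 0.978), the smallest of the tested members, but its exons are shared with Il11ra1 on the other strand and a near-identical copy exists. Ccl25, which attracts CCR9-bearing lymphocytes in the gut, was between 2.59 and 4.61 CPM in MGL KO and between 2.68 and 4.799 CPM in WT libraries (log2 fold change -0.25, SE 0.29). Ccl28 and Ccl20, which bring CCR10-bearing plasma cells and CCR6-bearing lymphocytes to mucosal surfaces, were not tested. Ccl28 had 15, 3, 20 and 396 counts in MGL KO and 7, 5, 7 and 6 counts in WT libraries, with 22.3 CPM in MGL KO replicate 4 and at most 1.23 CPM elsewhere. Ccl20 had 241 counts in MGL KO replicate 4 (13.5 CPM) and between 0 and 2 counts elsewhere. Both were highest in the library with the airway markers, as Cxcl5 and Cxcl17 were. Ccl26 stayed at or below 0.367 CPM.

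Cx3cl1, the membrane-anchored ligand of CX3CR1 made by endothelium and epithelium, was 6.001, 6.14, 8.51 and 14.95 CPM in MGL KO and 8.14, 8.05, 6.44 and 8.87 CPM in WT libraries. The groups overlapped, and its log2 fold change of 0.18 (SE 0.30, adjusted p = 0.872) was -0.19 without MGL KO replicate 4. Xcl1, a T and NK cell product, did not exceed 0.223 CPM.

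**Figure D3:**
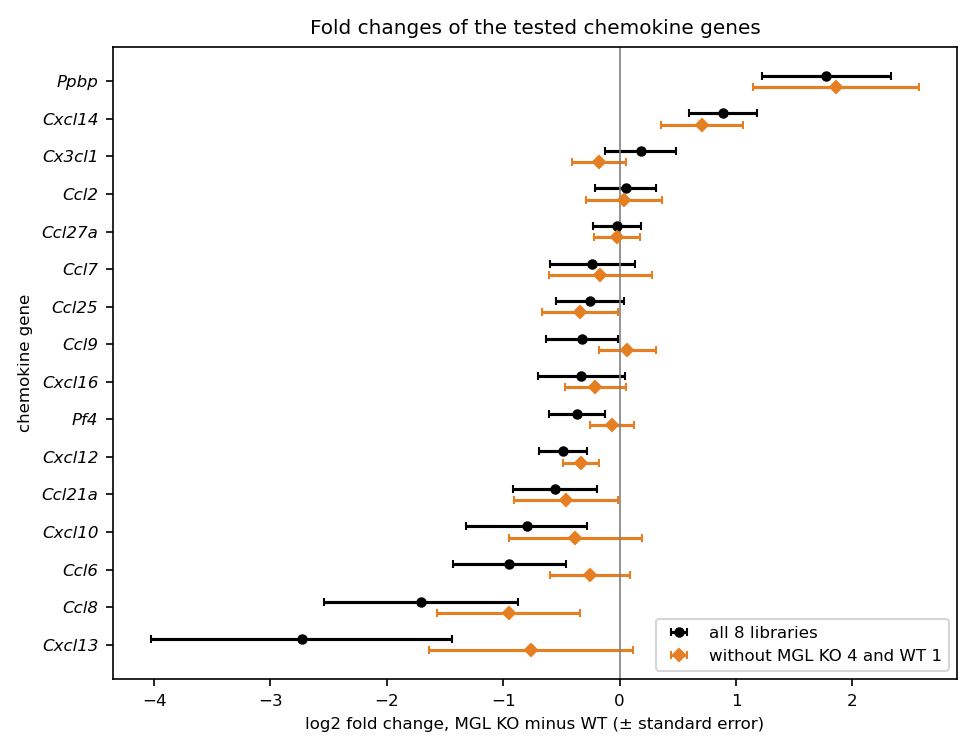
Log2 fold changes (MGL KO minus WT) of the 16 tested chemokine genes with standard errors from edgeR's quasi-likelihood test, from all 8 libraries (black circles) and without MGL KO replicate 4 and WT replicate 1 (orange diamonds). Estimates from all libraries run from -2.73 (Cxcl13) to 1.78 (Ppbp), the Cxcl13 estimate without both libraries is -0.76, and no gene passed the adjusted threshold.

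Promoter sequences were searched for short motifs known from inducible chemokine genes. RefSeq promoters on GRCm38.p6 were matched for 26 of the 35 members. No entry was found for Ccl2, Ccl4, Ccl5, Ccl7, Ccl26, Cxcl5, Cxcl11, Cxcl16 and Cxcl17. Within the 250 bases before the start, the NF-kB-type motif (GGG, any 3 bases, TTCC) was present on either strand for 6 members (Ccl9, Ccl20, Cxcl1, Cxcl2, Cxcl3 and Cxcl10), and in 4.65% of all promoters. The interferon response-type motif (GAAA, any 2 bases, GAAA) was found, on either strand, for Ccl19, Cxcl10 and Cxcl14, and in 2.98% of all promoters. TATAAA was found for 10 of the 26 matched members, and in 12.4% of all promoters. A match describes these letters and no binding. Shown are Ccl20, as a member seen almost only in MGL KO replicate 4, Cxcl10, with both inducible motifs, and Cxcl13, the tested member with the largest ratio between its highest and lowest library. Their positions are chr1:83116516-83116765 on the forward strand, chr5:92348890-92349139 on the reverse strand and chr5:95956689-95956938 on the forward strand. Capitals mark the NF-kB-type motif in Ccl20 (reverse strand, bases 80 to 71 before the start), that motif at bases 159 to 150 and 104 to 95 with the interferon response-type motif at bases 213 to 204 in Cxcl10, and TATAAA at bases 46 to 41 in Cxcl13. No marked stretches overlap.
Ccl20: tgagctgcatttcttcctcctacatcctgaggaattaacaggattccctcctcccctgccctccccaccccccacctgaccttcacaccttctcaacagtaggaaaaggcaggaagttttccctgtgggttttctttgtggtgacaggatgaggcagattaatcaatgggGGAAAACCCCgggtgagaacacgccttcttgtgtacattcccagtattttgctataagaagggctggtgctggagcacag
Cxcl10: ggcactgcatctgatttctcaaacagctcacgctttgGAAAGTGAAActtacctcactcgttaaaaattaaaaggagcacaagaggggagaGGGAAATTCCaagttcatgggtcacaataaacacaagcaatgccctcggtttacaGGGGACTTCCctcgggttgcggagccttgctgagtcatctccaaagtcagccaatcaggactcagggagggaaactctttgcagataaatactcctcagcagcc
Cxcl13: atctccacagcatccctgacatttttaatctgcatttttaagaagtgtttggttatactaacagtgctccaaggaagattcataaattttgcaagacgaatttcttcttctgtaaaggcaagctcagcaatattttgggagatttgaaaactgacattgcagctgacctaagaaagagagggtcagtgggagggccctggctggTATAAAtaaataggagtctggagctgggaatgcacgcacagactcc

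Among the tested conventional receptors of these ligands, 5 had a higher and 4 a lower estimate in MGL KO, with standard errors of up to 1.02 (Cxcr5). Of 19 conventional receptor genes, 9 were tested and 0 passed the adjusted threshold. At an unadjusted p under 0.05, 2 receptors, Ccr2 among them, were lower in MGL KO and none was higher, against 4.29% and 4.35% of all tested genes. Ccr2, the monocyte receptor of CCL2, was 19.96, 21.2, 26.1 and 19.1 CPM in MGL KO and 43.8, 28.9, 26.0 and 29.5 CPM in WT libraries. Its log2 fold change was -0.57 (SE 0.18, unadjusted p = 0.012, adjusted p = 0.502), and -0.38 without WT replicate 1. The groups of Ccr2 overlapped by a single WT library, replicate 3.

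The CXC receptors showed wider spread. Cxcr2, the receptor of the ELR ligands, was 1.78, 0, 0.863 and 2.53 CPM in MGL KO and 2.01, 1.83, 0.197 and 0.587 CPM in WT libraries, and Cxcr4, the receptor of CXCL12, was between 5.32 and 10.4 CPM in MGL KO and between 3.60 and 13.6 CPM in WT libraries. Their log2 fold changes were 0.18 (SE 0.91) and 0.10 (SE 0.45). The scavenger Ackr3, which takes up CXCL12, was 64.3 ± 9.20 CPM in MGL KO and 58.1 ± 5.997 CPM in WT libraries (SD, n = 4), with a log2 fold change of 0.15 (SE 0.13, adjusted p = 0.745), and 0 of the 5 atypical receptors had an unadjusted p under 0.05. Ccr10, the receptor of CCL27 and CCL28, had a log2 fold change of 0.15 (SE 0.43). Ccr7 and Cxcr6 were not tested. Ccr7 reached 2.45 CPM in WT replicate 1 and 1.85 CPM in MGL KO replicate 4, and Cxcr6 1.51 CPM and 1.18 CPM in the same libraries.

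**Figure D4:**
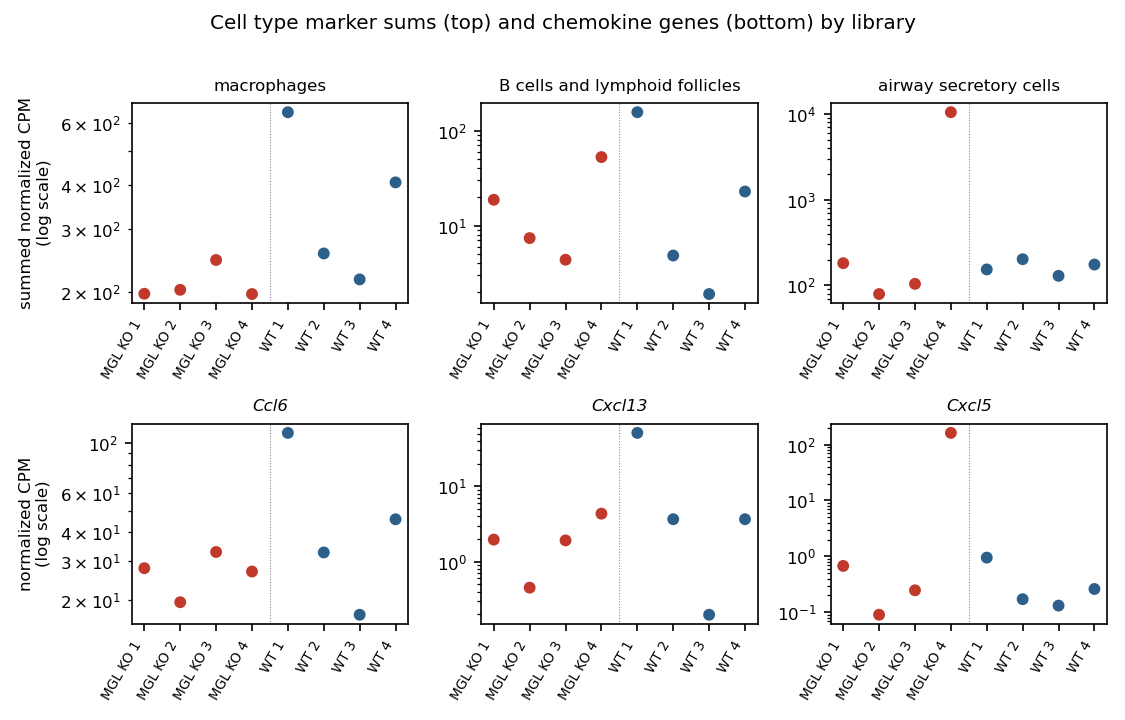
Summed levels of macrophage, B cell and airway secretory markers (top) and levels of Ccl6, Cxcl13 and Cxcl5 (bottom) in CPM on log axes, with 1 point for each of the 8 libraries coloured by group. WT replicate 1 holds the highest macrophage and B cell marker sums (642 and 157 CPM) and MGL KO replicate 4 the highest airway secretory sum (10428 CPM).

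Of 21 genes of chemokine signalling and processing, 20 were tested, and of 18 NF-kB response genes, 16 were tested. None passed the adjusted threshold in the quasi-likelihood test. Nfkbia, which encodes the NF-kB inhibitor IkB-alpha and is itself induced by NF-kB, was 88.6, 85.1, 86.6 and 90.0 CPM in MGL KO and 59.2, 57.5, 54.2 and 70.5 CPM in WT libraries. The groups did not overlap, and the spread within MGL KO was small. Nfkbia had a log2 fold change of 0.54 (SE 0.10, unadjusted p = 0.000404, adjusted p = 0.222), and the gene passed the adjusted threshold in the exact test on the same genes and in DESeq2 (0.54 and 0.55). It was the single gene of the 16 tested in its list with an unadjusted p under 0.05, against 8.65% of all tested genes. The list had a median log2 fold change of 0.02. Without MGL KO replicate 4 the list turned, with a median of -0.14 and 11 of the 16 genes lower in MGL KO. Of these, 3 had an unadjusted p under 0.05, where 9.36% of all tested genes had such a p in either direction. Cxcl1, Cxcl2 and Ccl20, chemokines also known as NF-kB targets, had overlapping groups.

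Sdc4, a heparan sulfate proteoglycan that holds chemokines at the cell surface, was 113, 93.8, 105 and 129 CPM in MGL KO and 89.4, 91.3, 60.9 and 76.7 CPM in WT libraries. Its groups did not overlap either (log2 fold change 0.47, SE 0.15, unadjusted p = 0.013, adjusted p = 0.503). Arrb2, the beta-arrestin that desensitizes chemokine receptors, was 19.5, 14.8, 19.9 and 19.2 CPM in MGL KO and 37.5, 21.7, 21.6 and 22.4 CPM in WT libraries (log2 fold change -0.49, SE 0.20, unadjusted p = 0.040, adjusted p = 0.560). All MGL KO libraries were below all WT libraries for Arrb2, and the estimate was -0.26 (unadjusted p = 0.107) without WT replicate 1. The unadjusted p of Arrb2 was above 0.05 in 5 of the 8 fits that left out a single library. Elmo1, which links chemokine receptors to Rac activation, had a log2 fold change of -0.54 (SE 0.23, unadjusted p = 0.043, adjusted p = 0.571), and it was -0.36 (unadjusted p = 0.136) without WT replicate 1. Its unadjusted p was above 0.05 in 6 of the 8 fits that left out a single library.

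**Figure D5:**
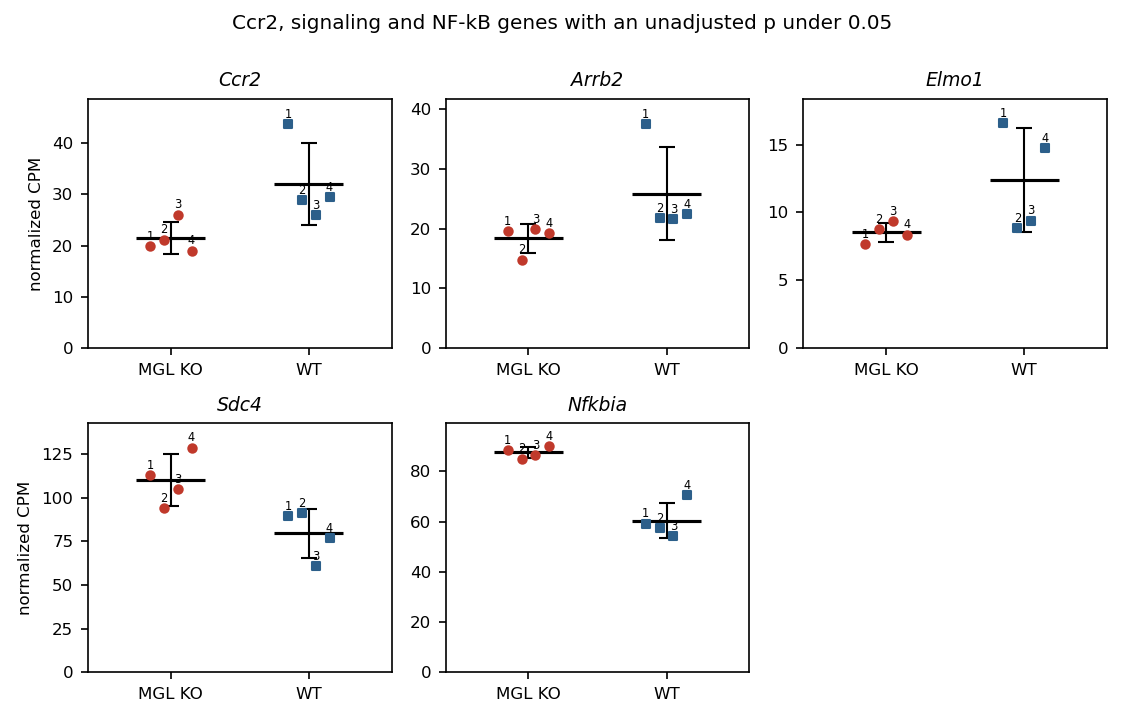
Levels (CPM) of Ccr2 and of the signalling and NF-kB genes with an unadjusted p under 0.05 in the 4 MGL KO and 4 WT libraries, with points numbered by replicate and bars for the mean ± SD. The MGL KO libraries lie above the WT libraries for Nfkbia and Sdc4 and below them for Arrb2, and WT replicate 1 is the highest library for Ccr2.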

How the data were processed

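RNA of 4 MGL KO and 4 WT esophagi was poly(A)-selected, sequenced on an Illumina NovaSeq (2 models, not assigned to libraries in the sources used here), checked with FastQC 0.11.9, trimmed with Cutadapt and aligned with STAR 2.7.10b to GRCm39. The authors deposited raw read counts per gene symbol, without normalization. The counting tool, annotation and use of strand are not given in the sources used here.

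The members and gene lists were chosen with earlier results of these data known. Groups were taken from the sample labels. Genes were kept by filterByExpr (minimum count 10), which left 14864 of 22721 genes with a count, scaled by TMM factors (0.82 to 1.11) and compared with the quasi-likelihood test of edgeR 4.0.16 in R 4.3.3, with Benjamini-Hochberg adjustment over all tested genes and a threshold of 0.05. Standard errors were derived from the fold change and the test's F statistic. CPM of genes that were not kept used the same scaling. Depth was between 13479069 and 17090152 counts per library, and no libraries of a group agreed within sampling noise (chi-square per degree of freedom at least 13.6).

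Members were described with all values where they were tested and had a mean of at least 5 CPM, an unadjusted p under 0.05, groups that did not overlap or an isolated library. Ccl2, Ccl7, Ccl8, Ccl25 and the members that were not tested were named after their values were seen. Pathway genes were named for an unadjusted p under 0.05 or as main receptors, and Cxcr5 and Cd79a after their values were seen. The values of 1 receptor gene with such a p are not reported here. Gene positions and exon lengths came from GENCODE M39 on GRCm39, and promoters from RefSeq on GRCm38.p6.

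Alternatives in scaling were RLE factors, upper quartile factors and the library size without factors. Alternatives in filtering were a minimum of 10 counts in all libraries and none at all. The others were the exact test on filtered genes and on all genes (named in the study's methods), DESeq2 1.42.0, limma-voom 3.58.1 with quality weights, a robust fit, a Y-linked covariate, the replicate number as a block and leaving out each library. Leaving out MGL KO replicate 4 and WT replicate 1 together was added after seeing the data. The labels give no pairing of samples by replicate number. Deviations of same-numbered libraries correlated at -0.14, -0.28, -0.14 and 0.08. No pairing was seen in them, but they cannot exclude it, since single libraries differed in makeup.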

Additional observations from a re-analysis of the deposited data

Results flagged for a closer look

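In groups of 4 libraries, a library was singled out where its gap to the nearest other library took up more of the group's range than Dixon's 95% limit allows. Over the 28 chemokine genes with at least 10 counts in some library, 13 of the 55 groups with any spread met this (23.6%), where chance gives about 1 in 20, or 2.75 groups. Over all 16799 genes with such counts, 11.5% of the groups met it. Groups of the same library are not independent of each other.

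In MGL KO replicate 4 these were Cxcl5 at 161 CPM (next library of the group 0.674), Cxcl17 at 83.9 CPM (1.22), Ccl28 at 22.3 CPM (1.23), Ccl20 at 13.5 CPM (0.0617) and Cxcl9 at 1.12 CPM (0.370). The summed airway secretory and ciliated markers were highest in the same library, and their part was not tested. In WT replicate 1 they were Cxcl12 at 75.0 CPM (45.4), Cxcl13 at 51.0 CPM (3.65), Ccl5 at 5.47 CPM (0.522), Cxcl9 at 3.74 CPM (0.326), Ccl22 at 1.06 CPM (0.130) and Cxcl5 at 0.948 CPM (0.261). The summed macrophage, T and NK cell and B cell markers were highest there, and their part was not tested. Cxcl10 was low in MGL KO replicate 1 at 0.612 CPM (next 0.787), and Ccl17 was high in WT replicate 4 at 0.391 CPM (0.131), which rests on 6 counts.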

How the results depend on the processing

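No chemokine gene passed the adjusted threshold in any setting. The number of members at an unadjusted p under 0.05 (3) was 9 with no filter (of 35 members tested in place of 16, with 7.73% of all genes at such a p). It was 5 of 16 and 9 of 35 in the exact test on filtered and on all genes (7.36% and 6.03% of all genes) and 6 of 16 in DESeq2 (9.7%). As single libraries were left out, it was between 2 and 9 of 17 to 19 tested members, with 5.91% to 9.62% of all genes at such a p. The 9 of 19 were those without WT replicate 3 (7.79%) and included Ccl28 and Cxcl5, which were high in MGL KO replicate 4 alone. Without MGL KO replicate 4 and WT replicate 1 together it was 1 of 16 (Ppbp, 6.72%). The count of all genes past the adjusted threshold (7) was 2 with no filter and in the robust fit, 64 and 42 in the exact test on filtered and on all genes, 137 in DESeq2, 25 in limma-voom, 3 with the Y-linked covariate, between 2 and 5 as single libraries were left out and 2 without both libraries. Receptors at an unadjusted p under 0.05 (2) numbered between 1 and 3 as single libraries were left out and 0 without both. Signalling and NF-kB genes at such a p (4) numbered 1 with library size alone, 2 with the Y-linked covariate, between 2 and 5 as single libraries were left out and 2 without both. Of all genes, 6.64% had such a p with library size alone and 8.17% with the Y-linked covariate. The shares of all genes in the other fits are those given above. Among the 12 members described in full, the direction of 4 turned. Ccl27a was 0.15 in limma-voom and between -0.12 (without WT replicate 1) and 0.15 (without WT replicate 3) as single libraries were left out. Cx3cl1 was -0.066 in limma-voom, -0.18 without both libraries and between -0.19 (without MGL KO replicate 4) and 0.33 (without MGL KO replicate 1) with single libraries left out. Ccl9 was 0.066 without both and between -0.51 (without WT replicate 3) and 0.053 (without WT replicate 1), and Cxcl16 was between -0.60 (without MGL KO replicate 4) and 0.067 (without WT replicate 1). Ccl2 also turned, from 0.05 to -0.02 without MGL KO replicate 1 and to -0.07 without WT replicate 2. Nfkbia passed the threshold in DESeq2 and in the exact test after filtering. The causes of these shifts were not tested.

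With the replicate block, 2 genes passed the adjusted threshold. In that fit 2 of 16 members (Cxcl14 and Ppbp) and 1 receptor had an unadjusted p under 0.05, against 4.92% of all tested genes. The samples of a block share only a number.

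With 4 libraries a group and a median standard error of 0.34, differences of most members were not detectable. Members with few counts, strand use in counting and the makeup of single libraries limit what the levels show.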
